A study of Mus musculus with 20 samples.

Results

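The genes described here encode 10 proteins that neutrophils pack into their granules: Elane, Mpo, Prtn3, Ngp, Camp, Ltf, Lcn2, Chil3, Mmp8 and Pglyrp1. They were chosen by name, and all 10 were among the 15855 genes of the scRNA-seq table of cultured cells and among the 15333 genes of the tumor table. Their levels were read in cells rich in S100a8 and S100a9, which encode the most abundant cytosolic proteins of neutrophils, and in the cells outside that gate. The gate was a sum of at least 100 S100a8 and S100a9 counts in cultured cells and at least 300 in tumor cells.

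The study used young female mice and asked how cancer turns B cells into macrophages. B-MF were adherent macrophages grown from BM B cells of C57BL/6 or BALB/c mice, after removal of cells carrying CD11b, Gr-1, Ly6C, Ly6G and other lineage markers, with medium that 4T1.2 breast cancer cells had conditioned. Mo-MF were grown from BM monocytes in the same medium. TAM were sorted from primary 4T1.2 tumors, from 4 mice by the study's account. A further 12 ATAC-seq libraries came from CSF1R+ and CSF1R- cells of BM and spleen, 3 per group. The labels call the ATAC-seq cells macrophages and the study describes them as B-cell precursors of untreated mice. The scRNA-seq data held 2 libraries of B-MF, 2 of Mo-MF and 4 of TAM, and which strain gave each culture library was not given in the sources used here. The study grew 4T1.2 tumors in BALB/cJ mice and in B-cell-deficient μMT mice, and which of these gave the TAM libraries was not given in the sources used here. The labels name no gene deletion and no drug for any group.

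Neutrophils make their granules in sequence while they mature in the marrow. Primary or azurophil granules form at the promyelocyte stage and hold myeloperoxidase (Mpo) and the serine proteases neutrophil elastase (Elane) and proteinase 3 (Prtn3). Secondary or specific granules form at the myelocyte and metamyelocyte stages and hold lactoferrin (Ltf), which binds iron, lipocalin 2 (Lcn2), which binds bacterial siderophores, the cathelicidin antimicrobial peptide (Camp) and neutrophilic granule protein (Ngp). Tertiary or gelatinase granules form last, and the collagenase Mmp8 and the peptidoglycan-binding protein Pglyrp1 are taken here as lying between secondary and tertiary granules. Chil3 encodes a chitinase-like lectin that monocytes and alternatively activated macrophages also make. Transcription of these genes in the marrow is known to depend on C/EBP factors, PU.1 and RUNX1.

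The bases before 4 of the gene starts are shown because Elane stands for the primary genes, which carried no C/EBP core, Ngp and Ltf for the specific granule genes with a core and a BM-only ATAC-seq peak, and Mmp8 for the later granules. They were taken from RefSeq on GRCm38.p6 (mm10) and are written 5′ to 3′ on the gene's own strand, which was the plus strand for all 4. The Elane run is chr10:79886062-79886246, the Ngp run chr9:110419558-110419746, the Ltf run chr9:111019042-111019270 and the Mmp8 run chr9:7558179-7558428. Where an annotated exon of another transcript began within the 250 bases before the RefSeq start the run was ended there, so it stops 65 bases short of the Elane start, 61 short of Ngp and 21 short of Ltf, while the Mmp8 run reaches the base before the start. Capitals mark a C/EBP core, TTGCNNAA, or a PU.1 core, GAGGAA, on either strand.
Elane: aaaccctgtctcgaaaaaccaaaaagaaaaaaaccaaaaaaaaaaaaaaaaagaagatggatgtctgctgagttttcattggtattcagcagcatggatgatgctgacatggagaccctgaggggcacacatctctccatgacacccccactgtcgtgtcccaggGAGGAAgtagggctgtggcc
Ngp: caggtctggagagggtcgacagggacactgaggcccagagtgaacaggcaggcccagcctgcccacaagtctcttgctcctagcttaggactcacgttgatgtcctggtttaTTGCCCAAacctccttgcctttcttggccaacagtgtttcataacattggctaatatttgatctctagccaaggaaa
Ltf: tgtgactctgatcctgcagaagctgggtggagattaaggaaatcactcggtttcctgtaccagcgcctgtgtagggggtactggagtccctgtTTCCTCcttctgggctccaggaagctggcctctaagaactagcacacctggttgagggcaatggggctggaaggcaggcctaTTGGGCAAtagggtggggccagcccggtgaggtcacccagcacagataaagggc
Mmp8: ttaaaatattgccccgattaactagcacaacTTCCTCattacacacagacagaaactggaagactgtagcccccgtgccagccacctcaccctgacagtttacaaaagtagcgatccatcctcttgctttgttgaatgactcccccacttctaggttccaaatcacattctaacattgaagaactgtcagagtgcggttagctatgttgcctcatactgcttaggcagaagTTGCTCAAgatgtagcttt

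Over the full 250 bases, the C/EBP core was found before 4 of the 10 genes: Ngp, Ltf, Lcn2 and Mmp8. Ngp carried it 2 times, 138 and 11 bases before the start, and the nearer copy lies beyond the end of the run printed above. The same core was present in 9.55% of the 27025 RefSeq promoters of that length. A PU.1 core was found before 7 of the 10 genes, among them all 3 primary granule genes, against 23.1% of promoters. A RUNX core, TGTGGT on either strand, was found before 0 of the 10 and in 14.2% of promoters. Ngp, Camp and Ltf lie near each other on chromosome 9, and Prtn3 and Elane lie side by side on chromosome 10 with 6645 bases between their starts. These matches describe the letters of the windows and say nothing about binding.

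No cell was named from clusters, and the labels were read against marker genes. In B-MF, 4084 of 5234 and 4362 of 5326 cells outside the gate carried counts of C1qa, C1qb and C1qc, complement genes that mark macrophages, and 7 and 6 cells carried the B-cell genes Cd79a and Ms4a1. In the libraries labelled TAM, 113 to 552 cells outside the gate carried all 3 complement genes, fewer than the cells inside the gate in each library.

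The gate held 478 of 4846 cells (9.86%) in Mo-MF replicate 1 and 446 of 5389 (8.28%) in replicate 2. In TAM it held 1110 of 3180 cells (34.9%) in library 2, 1285 of 2318 (55.4%) in library 3, 1086 of 2387 (45.5%) in library 4 and 1549 of 3000 (51.6%) in library 5. In B-MF it held 3 of 5237 cells and 0 of 5326, which allows a share of up to 0.0563%. The tumor libraries carry the numbers 2 to 5 in the data and 1 to 4 in the labels, so they could not be tied to single mice. The tables of cultured and tumor cells were normalised separately, and their levels stand side by side without a comparison. Across libraries, 45 barcodes were found in more than one culture library and 13 in more than one tumor library, and 7 and 13 gated cells carried them. Doublets were not removed.

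Of the 5 neutrophil markers, S100a8 and S100a9 set the gate, and the other 3 (Csf3r, Retnlg and Cxcr2) were higher inside than outside it in all 6 Mo-MF and TAM libraries. All 7 macrophage markers were lower inside the gate in both tables. Their sum fell to 273 and 289 counts from 599 and 581 in Mo-MF, with C1qa, C1qb and C1qc at 6.38 to 10.8 counts per gated cell, and to 6.96 to 11.2 from 18.4 to 40.5 in TAM. The part of this macrophage RNA in the values below was not tested. Monocyte markers summed to 4.52 and 5.61 inside against 4.35 and 4.32 outside in Mo-MF and to 1.27 to 1.51 against 10.7 to 11.6 in TAM. The sums in Mo-MF hide opposite moves, since 4 of the 5 were higher inside in both libraries (Ly6c2 at 0.935 and 0.937 against 0.0730 and 0.0914) and Fn1 was lower (0.874 and 1.31 against 3.06 and 3.22). Of the other lists, the 4 basophil and mast cell markers summed to 1.51 inside against 1.06 outside the gate in Mo-MF replicate 1 and to 0.0336 against 0.284 in replicate 2, and 0 of the 4 moved the same way in both. The T-cell gene Cd3d stood at 0.490 and 0.435 in gated Mo-MF cells against 0.00183 and 0.00121 outside. Gated cells had fewer detected genes than the others, with medians of 3046 and 3050.5 against 3894.5 and 3803 in Mo-MF and of 1362.5 to 1427 against 2274 to 2444 in TAM.

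Inside the gate, the secondary granule genes carried most of the granule transcripts and the primary genes few. In Mo-MF, Ngp averaged 82.3 corrected counts per cell in replicate 1 and 62.5 in replicate 2, or 72.4 ± 14.0 (SD, n = 2). Lcn2 averaged 72.7 and 60.0 counts. Camp averaged 26.9 and 21.6 counts and Ltf 23.8 and 16.6. Chil3 was the lowest of the secondary genes, at 4.47 and 4.85. Mmp8 averaged 16.6 and 17.2 counts and Pglyrp1 16.3 and 14.0. The primary gene Prtn3 averaged 2.65 and 3.78 counts. Elane averaged 0.400 and 1.79 counts and Mpo 0.241 and 0.791, so that both lay below every secondary gene in both replicates and differed between the replicates by a larger ratio than the other 8 genes. These are counts of transcript 3′ ends, not divided by transcript length.

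In gated TAM the secondary genes ranked differently and the primary genes were near absent. Lcn2 was the highest, at 13.2, 20.2, 16.1 and 18.0 counts per cell in libraries 2 to 5. Ngp averaged 3.33, 9.97, 7.05 and 6.30 counts. Pglyrp1 averaged 4.66, 5.96, 5.51 and 5.51 counts, and Mmp8 2.18, 3.99, 2.93 and 3.43. Library 2 was the lowest and library 3 the highest for each of these 4 genes. Camp averaged 0.778, 3.47, 2.07 and 1.81 counts and Ltf 0.793, 2.59, 1.81 and 1.503, with library 2 again the lowest. Chil3 stood at 0.0904 to 0.203 counts and Prtn3 at 0.0477 to 0.177. Mpo lay between 0.00360 and 0.00700. Elane reached 0.0101 in library 3 and was at 0 in the 1110 gated cells of library 2, where a sum of 3 counts, taken as the floor for a sum of 0, would be 0.00270 per cell. Floors and shares of cells cover counting error only.

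**Figure D1:**
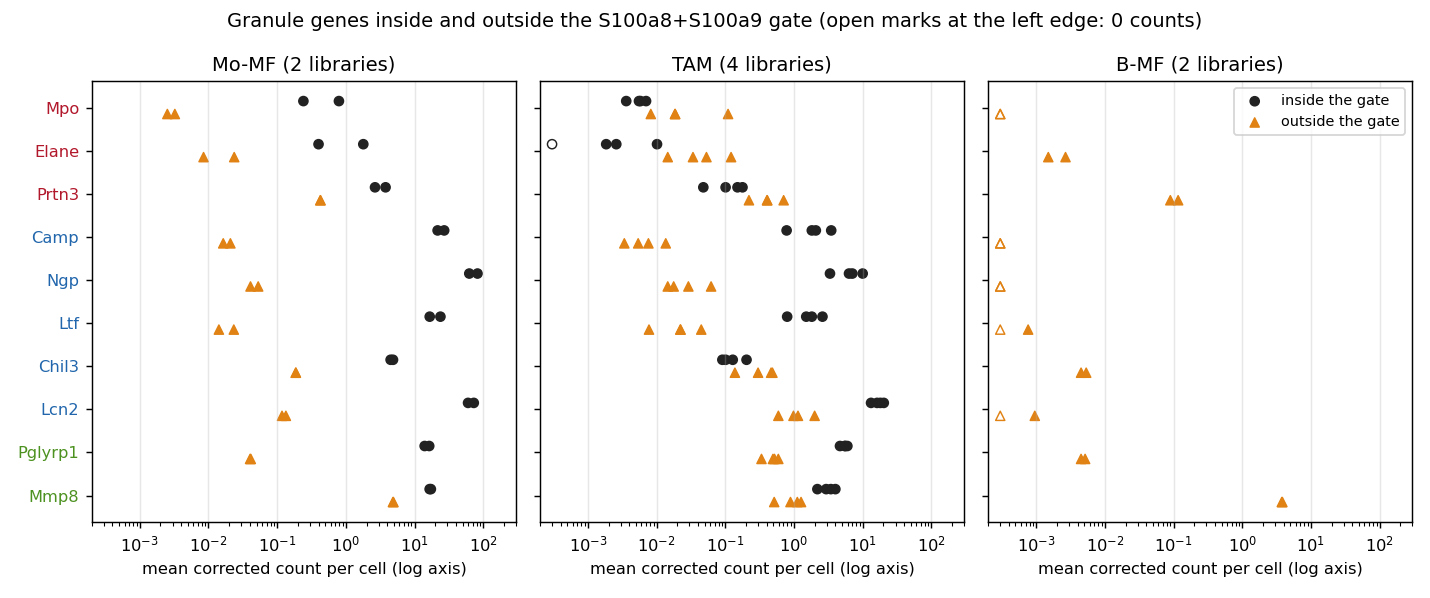
Mean corrected count per cell (log axis) of each granule gene, inside the S100a8 and S100a9 gate (black circles) and outside it (orange triangles), with 1 mark per library of Mo-MF, TAM and B-MF. Primary genes are labelled in red, secondary in blue and Mmp8 and Pglyrp1 in green. Ngp lies at 62.5 to 82.3 inside and 0.0409 to 0.0529 outside in Mo-MF, while Prtn3, Chil3, Elane and Mpo lie lower inside the gate than outside in each TAM library.

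The genes also differed in how many gated cells carried them. Mmp8 was detected in 93.9% and 95.5% of gated Mo-MF cells and Lcn2 in 89.3% and 88.6%. Ngp, in spite of its higher mean than Mmp8, was detected in 31.2% and 28.9%. Elane was detected in 2.93% and 4.04% and Mpo in 1.26% and 2.02%. In TAM, Lcn2 was detected in 74.0% to 83.9% of gated cells, Pglyrp1 in 72.0% to 74.0%, Mmp8 in 44.6% to 62.3% and Ngp in 13.3% to 21.1%. Lcn2, Mmp8 and Pglyrp1 were thus spread over most gated cells in Mo-MF, and Ngp, Camp and Ltf were held by a minority.

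That minority was small. Cells with at least 10 summed counts of Ngp, Camp and Ltf made up 106 of the 478 gated cells (22.2%) and 86 of the 446 (19.3%) in Mo-MF, and 3.33%, 7.70%, 6.72% and 5.62% of gated cells in TAM libraries 2 to 5. They held 99.7% and 99.6% of the Ngp counts of gated Mo-MF cells and 91.8% to 96.5% in TAM. Lcn2 averaged 249 and 220 counts in these Mo-MF cells and 22.3 and 21.9 in the other gated cells. Pglyrp1 averaged 57.0 and 54.4 against 4.73 and 4.36. Mmp8 hardly differed between the same cells of Mo-MF, at 16.8 and 19.2 against 16.5 and 16.8, whereas in TAM it averaged 6.49 to 8.05 against 2.04 to 3.70. Cxcr2, the chemokine receptor of mature neutrophils, averaged 6.28 and 6.66 in the Ngp, Camp and Ltf cells of Mo-MF and 9.77 and 8.64 in the rest. TAM showed no such direction, with Cxcr2 higher in these cells in libraries 2 and 3 (4.38 and 3.77 against 3.02 and 3.39). It was lower in libraries 4 and 5 (3.11 and 3.53 against 3.51 and 3.67).

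Ngp was concentrated in the cells richest in S100a8 and S100a9. In Mo-MF it averaged 0.118 and 0.0820 counts in cells with 30 to under 100 summed S100a8 and S100a9 counts, 0.0744 and 0.0865 from 100 to under 300, 2.66 and 1.61 from 300 to under 1000, and 194 and 146 at 1000 or more. Ltf followed the same steps, with 0.0248 and 0.0481 from 100 to under 300 and 55.6 and 38.7 at 1000 or more. Lcn2 was already at 5.65 and 5.88 counts from 100 to under 300 and reached 155 and 126 at 1000 or more. Mmp8 rose little over the same span, from 11.3 and 11.9 to 19.9 and 21.1. The cells just inside the Mo-MF gate therefore held Lcn2 and Mmp8 and almost no Ngp or Ltf.

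The order in which the genes fell along neutrophil maturity was read from a score that used no granule gene. Gated cells of each library were ranked by the mean ln(1 + count) of 10 genes of mature neutrophils (Cxcr2, Csf3r, Il1b, Fpr1, Clec4d, G0s2, Msrb1, Il1r2, Ccrl2 and Trem1). Each gene's position is the mean rank of its counts from 0, the lowest score, to 1, the highest, given where a library's gated cells held at least 50 counts of the gene. A gene spread evenly over the cells would lie in the middle of the scale.

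In Mo-MF, Mpo and Elane had the lowest positions, the specific granule genes came next, and Mmp8 lay highest. Mpo lay at 0.0603 and 0.0754 in replicates 1 and 2 and Elane at 0.0874 and 0.0864. Camp lay at 0.137 and 0.124, Prtn3 at 0.151 and 0.123, and Ngp at 0.161 and 0.151. Camp and Prtn3 changed places between the replicates, and so did Ltf (0.180 and 0.154) and Chil3 (0.154 and 0.180). The ranges of Camp, Prtn3, Ngp, Ltf and Chil3 overlapped from each gene to the next, so their order was not resolved. Lcn2 lay at 0.313 and 0.337 and Pglyrp1 at 0.318 and 0.363, with overlapping ranges. Mmp8 lay at 0.568 and 0.562. The steps from Mpo to Elane, Elane to Camp, Chil3 to Lcn2 and Pglyrp1 to Mmp8 were made in both replicates without overlap.

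In TAM, Camp, Ltf, Ngp and Chil3 had the lowest positions of the 8 genes placed, and Prtn3 lay well above them. Camp lay at 0.0635, 0.0831, 0.0510 and 0.0516 in libraries 2 to 5 and Ltf at 0.103, 0.0933, 0.0680 and 0.0762. Camp lay below Ltf in 4 of 4 libraries, although their ranges overlapped across libraries. Ngp lay at 0.157, 0.116, 0.107 and 0.103, with no overlap, although the lowest Ngp and the highest Ltf position both round to 0.103. Chil3 lay at 0.0934 to 0.159, on both sides of Ngp. Prtn3 lay at 0.464, 0.326, 0.398 and 0.312 and overlapped Lcn2, at 0.437, 0.360, 0.386 and 0.406. Prtn3 counts were low here, at 0.0477 to 0.177 per gated cell against 0.220 to 0.705 per cell outside. The part of RNA from cells outside the gate in the Prtn3 position was not tested. Mmp8 lay at 0.460 to 0.473 and Pglyrp1 at 0.435 to 0.527, near the middle of the scale. Elane and Mpo had fewer than 50 counts in the gated cells of each TAM library, so no position was given.

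**Figure D2:**
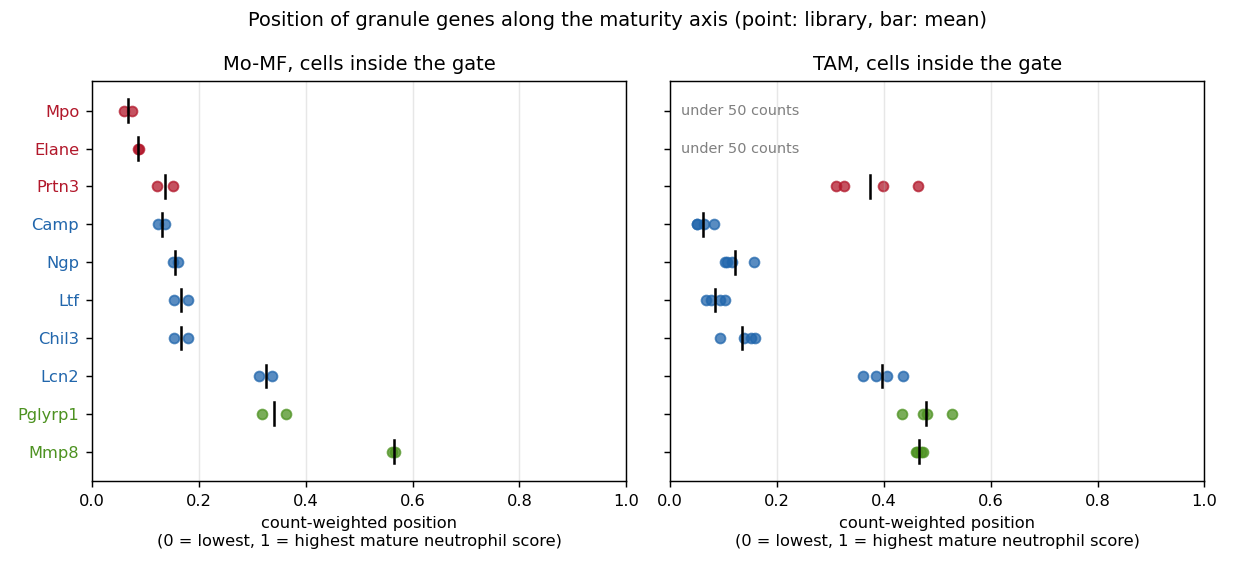
Position of each granule gene along the maturity score in gated cells of Mo-MF (left) and TAM (right), from 0 at the lowest to 1 at the highest score of the mature neutrophil genes. Points are libraries and bars their mean. Camp, Ngp, Ltf and Chil3 lie at 0.0510 to 0.180 in all 6 libraries, Mmp8 lies at 0.562 and 0.568 in Mo-MF and 0.460 to 0.473 in TAM, and Prtn3 lies at 0.123 and 0.151 in Mo-MF and 0.312 to 0.464 in TAM.

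The position of the primary genes in Mo-MF rested on very few cells. The single cell richest in Mpo held 77.8% and 41.7% of the Mpo counts of the whole library, and the richest Elane cell held 28.1% and 30.02% of the Elane counts. In an alternative chosen after seeing the data, the 4 cells of each library highest in Elane plus Mpo were left out. Prtn3 then moved to 0.299 and 0.221, Elane kept a position in replicate 2 alone (0.0756), and Mpo in neither. Over the primary genes that kept a position, the mean secondary less the mean primary position went from 0.0376 to -0.112 in replicate 1 (Prtn3 alone) and from 0.0847 to 0.0384 in replicate 2 (Elane and Prtn3). The positions of Camp (0.135 and 0.122), Ngp (0.161 and 0.15) and Mmp8 (0.566 and 0.559) stayed where they were. Since these cells were picked for their Elane and Mpo, the change shows how few cells carried the primary counts. Prtn3, the primary gene placed in both replicates, then lay above Ngp, Camp, Ltf and Chil3 in both, and Elane still lay below them in replicate 2. Camp, Ngp and Ltf stayed before Mmp8 in both replicates.

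Split into quintiles of the score, the counts of Ngp, Camp and Ltf lay mostly in the cells with the lowest score. The lowest quintile of gated cells held 70.2% and 75.7% of the Ngp counts in Mo-MF and 68.2% to 86.3% in TAM. It held 76.9% and 81.7% of the Camp counts in Mo-MF and 87.7% to 97.8% in TAM. Mean Ngp fell from 291 and 237 counts in the lowest quintile of Mo-MF to 0.938 and 0.596 in the highest. Lcn2 was spread further, with 47.2% and 47.4% of its Mo-MF counts and 26.1% to 37.4% of its TAM counts in the lowest quintile. Mmp8 went the other way in Mo-MF, from 10.4 and 12.5 counts in the lowest to 21.5 and 21.2 in the highest quintile, and in TAM it went from 2.42, 4.66, 3.29 and 3.99 in the lowest to 1.38, 3.54, 2.30 and 2.94 in the highest. The macrophage gene C1qa moved along the same score. In Mo-MF it was detected in 58.9% and 68.5% of cells of the lowest and 97.9% and 97.8% of the highest quintile, while its mean went from 6.34 and 10.9 counts to 4.48 and 2.60, and in TAM it was detected in 25.7% to 38.7% and 19.5% to 23.9%. Of the score's genes, Clec4d (12.4 and 12.5 counts), Msrb1 (6.0 and 5.82) and Ccrl2 (1.502 and 1.43) were also present outside the Mo-MF gate, and the part of macrophage RNA in the Mmp8 values was not tested. Cebpe, which encodes the C/EBP factor required for specific granules, averaged 5.82 and 4.79 counts in the lowest quintile of Mo-MF and 0.198 and 0.0899 in the highest. In TAM, Cebpe lay at 0.0901 to 0.166 in the lowest quintile and 0.0428 to 0.0742 in the highest.

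**Figure D3:**
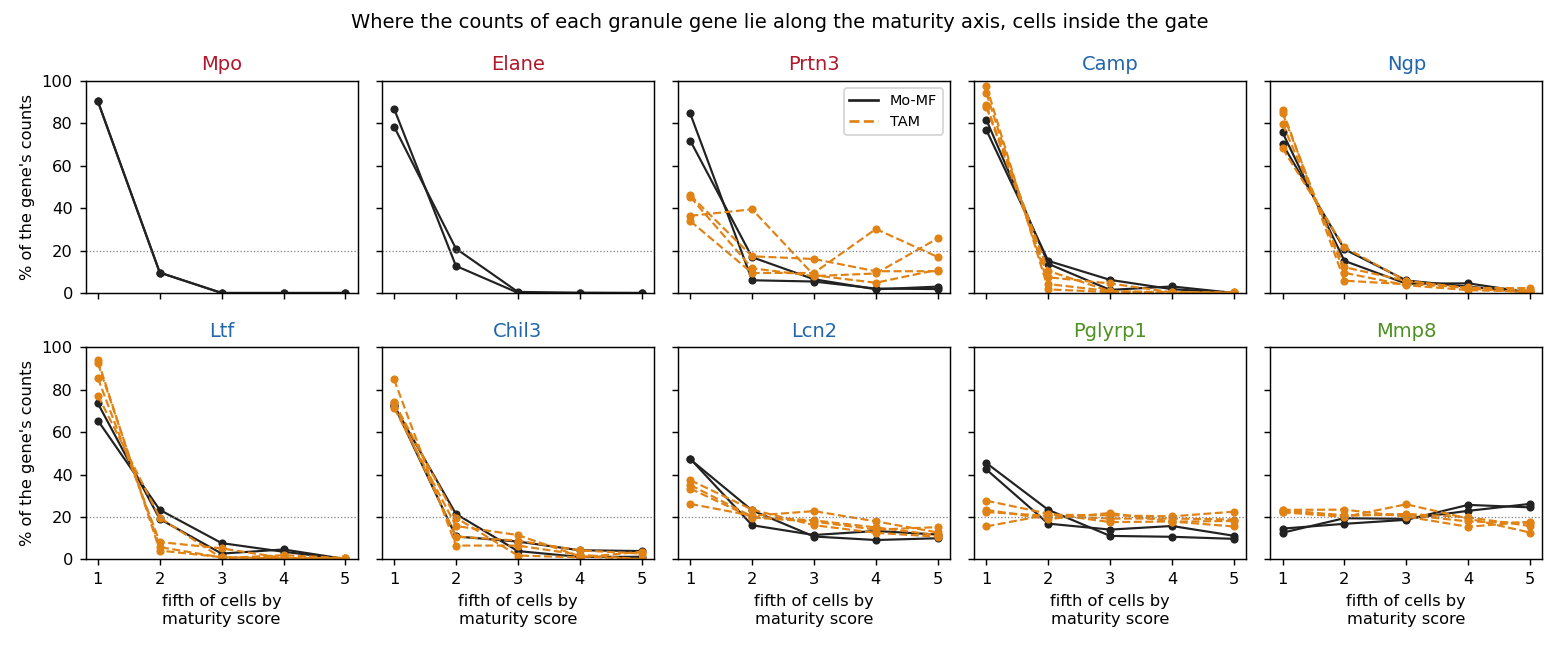
Share of each granule gene's counts in gated cells that lay in each quintile of the maturity score, from the lowest (1) to the highest (5) score. Solid black lines are the 2 Mo-MF libraries, dashed orange lines the 4 TAM libraries and the dotted line is an even spread. Elane and Mpo are drawn for Mo-MF alone. Camp falls from 76.9% and 81.7% in quintile 1 of Mo-MF to under 0.1% in quintile 5, while Mmp8 holds 12.5% and 14.5% in quintile 1 and 26.1% and 24.5% in quintile 5.

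In Mo-MF, nearly all cells counted as having primary granule transcripts also held secondary ones, as did most gated cells. With 3 or more summed counts taken as presence, primary genes were present in 47 of 478 gated cells (9.83%) and 50 of 446 (11.2%). Secondary genes, counted over Ngp, Camp, Ltf and Lcn2, were present in 81.0% and 82.5%. Among the cells with primary genes, 97.9% and 98.0% also had secondary genes. Lcn2 alone was detected in 89.3% and 88.6% of gated cells, so a high share was largely set in advance. Elane and Mpo together reached 3 counts in 8 and 11 cells, so presence in the other primary cells needed Prtn3. In TAM, primary genes were present in 1, 13, 13 and 9 gated cells of libraries 2 to 5, and secondary genes in 58.7%, 71.5%, 65.1% and 68.7%. Of the TAM cells with primary genes, 0 of 1, 12 of 13, 10 of 13 and 7 of 9 also had secondary genes. Cells with both made up 0% to 0.934% of gated TAM cells.

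Cells rich in Elane and Mpo, with at least 10 counts of the pair, were found inside the gate in Mo-MF and outside it in TAM. Mo-MF held 6 in replicate 1, all gated, and 9 in replicate 2, of which 7 were gated. Of these 15 cells, 10 had 3 or more summed counts of Ngp, Camp and Ltf. Their Prtn3 averaged 149 and 154 counts, their Ngp 566 and 250, and their Ms4a3, a marker of granulocyte-monocyte progenitors, 15.0 and 15.1. Cebpe averaged 14.5 and 8.0 counts and the proliferation marker Mki67 9.17 and 15.0. TAM held 1, 3, 1 and 2 such cells in libraries 2 to 5, with 0 of the 7 gated and 0 with Ngp, Camp and Ltf at 3 or more counts. B-MF held 0 of 10563 cells, which allows a share of up to 0.0284%. With so few cells these are descriptions of single libraries.

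Correlations of ln(1 + count) were taken across the gated cells of a library, whose cells share that library. They were high among Ngp, Camp and Ltf in both sources, and between Elane and Mpo in Mo-MF. Camp and Ltf had r = 0.946 and 0.939 in Mo-MF (n = 478 and 446 cells) and 0.905 to 0.923 in TAM (n = 1086 to 1549 cells). Ngp and Camp had r = 0.914 and 0.902 in Mo-MF and 0.714 to 0.820 in TAM. Elane and Mpo had r = 0.744 and 0.933 in Mo-MF. These 2 values rest on few cells, since Elane was detected in 2.93% and 4.04% of the gated cells and Mpo in 1.26% and 2.02%. Lcn2 and Pglyrp1 had r = 0.760 and 0.726 in Mo-MF and 0.438 to 0.518 in TAM. Ngp was about as close to both, with r = 0.723 and 0.681 for Lcn2 and 0.785 and 0.779 for Pglyrp1 in Mo-MF, and 0.450 to 0.545 and 0.388 to 0.527 in TAM. Camp and Ltf were further from both, at 0.593 to 0.714 in Mo-MF and 0.261 to 0.408 in TAM. All of these were lower than the correlations among Ngp, Camp and Ltf. Ngp and Mmp8 were of opposite sign in the 2 sources, at -0.199 and -0.212 in Mo-MF and 0.229 to 0.313 in TAM.

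Among all other genes with a mean of at least 0.1 in gated cells, those most like the summed secondary genes in Mo-MF were Serpinb1a (mean r = 0.867 over the 2 libraries), which encodes an inhibitor of neutrophil elastase and proteinase 3, Cd177, a neutrophil surface protein that binds proteinase 3 (0.855), Adpgk (0.838), Cebpe (0.835) and Syne1 (0.814). In TAM they were Serpinb1a (mean r = 0.729 over the 4 libraries), Cd177 (0.721), Ifitm6 (0.667), Ly6g, the surface antigen that defines mouse neutrophils (0.643), and Aldh2 (0.591). The genes most like the summed primary genes in Mo-MF were Ms4a3 (0.846), Fcnb (0.723), Prss57, a serine protease of azurophil granules (0.578), Fcor (0.568) and Cdkn3 (0.528). Elane and Mpo entered that sum through few cells, and Prtn3 was detected in 29.7% and 28.9% of gated Mo-MF cells. In TAM the primary genes had no close match, the highest being the monocyte genes Ly6c1 (0.217) and Ly6c2 (0.201), followed by Tmem256 (0.191), Rpsa (0.184) and Ccr2 (0.174).

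Longer lists of granule genes, which include the 10 genes, were compared inside and outside the gate. Over all genes of the tables, 21.1% were higher and 59.7% lower inside the gate in both Mo-MF libraries, and 9.7% were higher and 63.4% lower in all 4 TAM libraries. Of 13 secondary granule genes, a list that also counts Mmp8 and Pglyrp1, 13 were higher inside than outside the gate in both Mo-MF libraries. In TAM 11 of the 13 were higher in all 4 libraries, and Chil3 and Cybb, which encodes a subunit of the NADPH oxidase, were lower. Of 8 primary granule genes, 7 were higher in both Mo-MF libraries, the exception being Cst7, which encodes the protease inhibitor cystatin F, at 0.0900 and 0.0561 inside against 0.114 and 0.127 outside. In TAM 2 of the 8 were higher in all 4 libraries, Prss57 and Serpinb1a, and 5 were lower. Serpinb1a stands in this list although its counts followed the secondary genes most closely. Of 9 tertiary granule and secretory vesicle genes, 6 were higher in both Mo-MF libraries and 2 lower, and 6 were higher in all 4 TAM libraries and 1 lower. Mmp9, the gelatinase, averaged 7.50 and 7.20 inside against 0.385 and 0.410 outside in Mo-MF and 2.59 to 3.15 against 0.869 to 1.74 in TAM. Of 10 cycling genes, 4 were higher and 5 lower inside the gate in both Mo-MF libraries, and 10 were lower in all 4 TAM libraries. Of 10 granulocyte regulators, 7 were higher and 2 lower inside the gate in both Mo-MF libraries, and 3 were higher and 6 lower in all 4 TAM libraries. Among them, Cebpe averaged 1.66 and 1.34 inside against 0.0348 and 0.0348 outside in Mo-MF, and 0.04955 to 0.0663 inside against 0.0862 to 0.112 outside in TAM. Cebpb went the other way in TAM, at 32.4 to 41.2 inside against 14.7 to 24.2 outside.

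The genes split into those held almost wholly by gated cells and those with a larger share of their counts outside the gate. Gated cells held 99.1% to 99.4% of the Ngp, Camp and Ltf counts in Mo-MF and 98.2% to 99.7% in TAM. They held 98.3% and 97.9% of the Lcn2 counts in Mo-MF and 92.3% to 94.4% in TAM. By contrast they held 26.9% and 24.3% of the Mmp8 counts in Mo-MF and 69.5% to 79.7% in TAM. They held 40.6% and 44.4% of the Prtn3 counts in Mo-MF and 10.4% to 23.8% in TAM. For Chil3 the share was 72.5% and 70.0% in Mo-MF and 10.5% to 43.7% in TAM.

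Ngp outside the gate averaged 0.0529 and 0.0409 counts per cell in Mo-MF, 1557 and 1530 times below the gated level, and 0.0145 to 0.0620 in TAM. It was found in 4.88% and 3.72% of Mo-MF cells outside the gate, and in 4.06% and 3.37% of those that carried C1qa, C1qb and C1qc, which mark macrophages. The median corrected total was 19519.5 and 19413 counts in the first population and 18983 and 18769.5 in the second. C1qa was also detected in 58.9% to 97.9% of gated Mo-MF cells by quintile of the score, and doublets were kept. Whether the Ngp counts outside the gate are background RNA was not tested.

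Counts of the other genes were also set per 100 Ngp counts, inside and outside the gate. Camp stood at 32.7 and 34.6 inside the gate and 39.4 and 40.1 outside in Mo-MF, and at 23.4, 34.8, 29.4 and 28.8 inside and 23.3, 21.9, 30.4 and 26.2 outside in TAM. Ltf stood at 28.9 and 26.5 inside and 44.2 and 34.7 outside in Mo-MF, and at 23.8 to 25.98 inside and 53.3 to 126 outside in TAM. Camp differed less between inside and outside than Ltf did, but the TAM ratios outside the gate rest on few counts. Outside the gate of TAM libraries 2 to 4, Ngp had 30, 64 and 23 counts in all and Camp 7, 14 and 7. The other genes moved further. Lcn2 stood at 88.3 and 95.9 counts per 100 Ngp counts inside the Mo-MF gate and at 253 and 288 outside. Prtn3 stood at 3.22 and 6.04 inside and 802 and 1046 outside. Mmp8 stood at 20.1 and 27.6 inside and 9305 and 11829 outside. In TAM, Lcn2 stood at 203 to 396 inside and 3214 to 5543 outside. Cells near the gate carried part of the Lcn2 difference, and in cells under 0.1 of the gate Lcn2 stood at 147 and 158 in Mo-MF and 1043 to 2100.0 in TAM. Ngp had 10 and 21 counts in all in such cells of TAM libraries 2 and 3. In Mo-MF cells under 0.1 of the gate Prtn3 and Mmp8 hardly moved, at 783 and 976 and at 9304 and 12026.

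Mmp8 was present in the cultured macrophages as well as in the gated cells. Outside the gate it averaged 4.92 and 4.83 counts in Mo-MF and 3.76 and 3.83 in B-MF, and was detected in 74.8%, 74.6%, 76.6% and 79.2% of cells. In cells with C1qa, C1qb and C1qc it averaged 4.86 and 4.95 in Mo-MF and 3.97 and 3.98 in B-MF. In TAM outside the gate it averaged 0.514, 1.26, 0.886 and 1.11 counts.

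In TAM, cells with monocyte transcripts outside the gate held more Prtn3 and Chil3 than gated cells or C1q cells did. In cells with Ccr2 and Ly6c2 counts and without C1qa, C1qb or C1qc, a population chosen after seeing the data, Prtn3 averaged 0.688, 1.96, 1.31 and 1.46 counts in libraries 2 to 5 (221 to 381 cells). In gated cells of the same libraries it averaged 0.0477, 0.177, 0.1501 and 0.101. In cells with C1qa, C1qb and C1qc it averaged 0.0851, 0.257, 0.0492 and 0.0465. Chil3 averaged 1.45, 1.45, 0.294 and 0.960 in the Ccr2 and Ly6c2 cells and 0.0492 to 0.116 in the C1q cells. Elane averaged 0.0735 to 0.230 and Mpo 0.0315 to 0.186 in the Ccr2 and Ly6c2 cells, above their gated means in each library. In Mo-MF 5 cells per library met the same definition, with Prtn3 at 10.0 and 22.6 counts and Chil3 at 15.2 and 13.8. These means rest on few cells. The richest cell held 26 of 50 and 93 of 113 Prtn3 counts in replicates 1 and 2, and the richest for Chil3 held 50 of 76 and 58 of 69. Chil4, a near-identical neighbor of Chil3, was not listed in either table, so counts under Chil3 may include its reads.

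Pglyrp1 was also found in a few TAM cells with T-cell transcripts, although the study defines TAM by macrophage surface antigens and sorted them. In the 17, 8, 19 and 24 cells with Cd3e and either Cd3d or Cd3g counts, which mark T cells, it averaged 2.41, 1.0, 1.68 and 0.708 counts and was detected in 70.6%, 37.5%, 73.7% and 33.3% of cells. In TAM cells with C1qa, C1qb and C1qc it averaged 0.199 to 0.593 counts. Lcn2 averaged 0.0833 to 0.176 in the same T cells and 0.554 to 2.04 in the C1q cells. The T cells were few in each library and doublets were not removed.

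To ask whether macrophages grown from B cells and from monocytes differed in granule transcripts, library means were compared with limma over all 8633 genes with a mean of at least 0.1, as differences of log2(mean + 0.1). Of these, 3413 (39.5%) had an adjusted p under 0.05, and 1458 (16.9%) were lower in B-MF. Of the 10 granule genes, 8 passed the filter on low means, and 8 of 8 were lower in B-MF. Since genes high in Mo-MF pass the filter through Mo-MF, this count is no support by itself. Nothing in the sources says that the replicates were separate cultures, so p-values measure the spread between these libraries, which may be technical. In means over all cells, fewer gated cells and less RNA per cell cannot be told apart: the means rest on the number of gated cells as well as on transcripts per cell, and 3 gated cells were found in B-MF against 924 in Mo-MF.

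Ngp and Camp were at 0 counts in all 10563 B-MF cells and averaged 8.17 and 5.21, and 2.68 and 1.80, over all cells of the Mo-MF libraries. Against the floor of 3 counts over both B-MF libraries, Ngp was at least 23552-fold lower and Camp at least 7888-fold lower in B-MF over all cells. In Mo-MF, gated cells held 99.2% to 99.4% of the counts of both genes. Outside the gate, against a floor of 3 counts, the bounds were 165-fold for Ngp and 65.5-fold for Camp. The fitted log2 differences over all cells were -6.05 for Ngp and -4.52 for Camp, and both depend on the added 0.1. Their B-MF values were that 0.1 alone, with no spread between libraries, so no p-value is given. Ltf had 4 counts in B-MF in all and averaged 2.37 and 1.39 in Mo-MF (log2 difference -4.25, SE 0.190, adjusted p = 1.16e-06). Ngp, Camp and Ltf passed the filter through Mo-MF, so their calls are no support.

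Lcn2 averaged 0.0145 and 0 counts in B-MF against 7.29 and 5.07 in Mo-MF, 852-fold lower in B-MF as a ratio of means (log2 difference -5.85, SE 0.147, adjusted p = 8.11e-08). Of the 76 Lcn2 counts in B-MF replicate 1, 93.4% lay in the 3 gated cells, whose Ngp, Camp and Ltf were at 0. Mmp8 averaged 31.0 counts in these cells, with 78 of the 93 counts in 1 cell and detection in 66.7%. Pglyrp1 averaged 0.00687 and 0.00451 in B-MF against 1.65 and 1.197 in Mo-MF (-3.83, SE 0.119, adjusted p = 1.92e-07). Chil3 averaged 0.00535 and 0.00451 against 0.609 and 0.573 (-2.72, SE 0.0525, adjusted p = 2.54e-08). All 3 genes passed the filter through Mo-MF, so their calls are no support. The fitted differences also depend on the added 0.1, which lies above all their B-MF means. As ratios of means, Pglyrp1 was 250-fold and Chil3 120-fold lower in B-MF.

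Of the 8 genes past the filter, Prtn3 and Mmp8 differed least. With 1 added in place of 0.1 the differences of the 8 genes lay between -2.92 (Ngp) and -0.53 (Mmp8), with the same calls. Prtn3 averaged 0.117 and 0.0897 counts in B-MF against 0.644 and 0.705 in Mo-MF, 6.53-fold lower in B-MF as a ratio of means (log2 difference -1.93, SE 0.0742, adjusted p = 5.23e-07). Mmp8 averaged 3.78 and 3.83 in B-MF against 6.07 and 5.86 in Mo-MF, 1.57-fold lower (-0.63, SE 0.0507, adjusted p = 3.35e-05). Elane and Mpo were under the filter. Elane had 22 counts in B-MF and 1144 in Mo-MF, and Mpo 0 and 495. Fitted without a filter, Elane differed by -0.96 (SE 0.341, adjusted p = 0.156) and Mpo by -0.54, neither past the threshold. The added 0.1 holds both sizes small. As a ratio of means Elane was 52.0-fold lower in B-MF, and against the floor of 3 counts Mpo was at least 166-fold lower. In Mo-MF the 4 richest cells per library held 67.1% and 76.2% of the Elane counts and 90.5% and 91.3% of the Mpo counts. Mpo had no spread in B-MF, so no p-value is given for it.

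The same comparison was made in the cells outside the gate, on log2(mean + 0.01) over 11580 genes with a mean of at least 0.01. Of these, 3081 (26.6%) had an adjusted p under 0.05, and 1595 (13.8%) were lower in B-MF. Of the granule genes, 6 passed the filter, and 6 of 6 were lower in B-MF, a count that is again no support, since Ngp, Lcn2, Chil3 and Pglyrp1 passed the filter through Mo-MF. Chil3 differed by -3.72 (SE 0.0623, adjusted p = 0.000165), with means of 0.00535 and 0.00451 in B-MF against 0.186 and 0.187 in Mo-MF. Lcn2 differed by -3.69 (SE 0.0911, adjusted p = 0.000221). Ngp differed by -2.50, Prtn3 by -1.96 (SE 0.127) and Pglyrp1 by -1.78 (SE 0.0606), all past the threshold. Ngp had 0 counts and so no spread in B-MF, and its call is no support. With 0.1 added in place of 0.01, the differences were -0.55 for Ngp, -1.37 for Prtn3, -0.43 for Pglyrp1, -1.45 for Chil3 and -1.17 for Lcn2, with the same calls. Prtn3 thus remained 4.13-fold lower in B-MF as a ratio of means outside the gate. The Mo-MF libraries held the gated cells that B-MF lacked, and the part of RNA released by those cells in these differences was not tested.

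For Mmp8 outside the gate, with the means given above, the log2 difference was -0.36 (SE 0.0575, adjusted p = 0.0145). The call was lost when either Mo-MF library was left out, with an adjusted p of 0.177 without replicate 1 and 0.126 without replicate 2. The difference itself hardly moved, at -0.35 and -0.37, and with 1 Mo-MF library left the fit assumes that it varies as the B-MF libraries do. Camp, Ltf, Elane and Mpo were under the filter outside the gate. Fitted without a filter, Camp differed by -1.51, Ltf by -1.45 (adjusted p = 0.00794) and Mpo by -0.36, and Elane, at -1.05 (adjusted p = 0.0755), did not pass. These sizes depend on the added 0.01. Outside the gate Camp and Mpo had 0 counts in B-MF against 172 and 27 in Mo-MF, and Ltf had 4 against 172. With no spread in B-MF, no p-value is given for Camp and Mpo. The B-MF means of Ltf, 0.000764 and 0, lay far below the added 0.01, so its call is no support. The median log2 difference of all genes tested was 0.0247 over all cells and -0.0061 outside the gate.

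**Figure D4:**
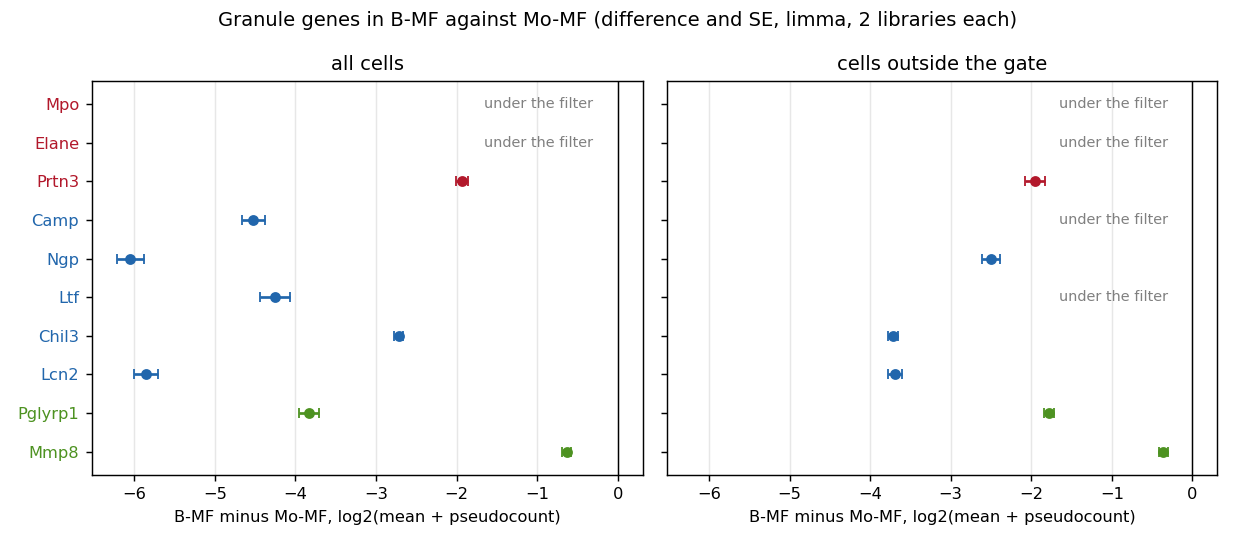
Difference of B-MF from Mo-MF on log2(mean + 0.1) over all cells (left) and log2(mean + 0.01) outside the gate (right), with its SE from limma on 2 libraries each. Values left of 0 are lower in B-MF. Ngp lies at -6.05 and -2.50 and Mmp8 at -0.63 and -0.36 in the left and right panels.

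ATAC-seq peaks, a readout on other cells, were read within 1000 bases of each RefSeq start, where no other RefSeq gene starts for any of the 10 genes. Ngp, Camp, Ltf and Lcn2, 4 of the 10 genes, had a peak in every BM library (6 of 6) and none in the spleen (0 of 6). The same pattern was found at 2.98% of 27025 genes. Among the 10 genes these are the secondary granule genes other than Chil3. Mmp8 had a peak in 5 of 6 BM libraries, all but CSF1R+ replicate 1, and in 0 of 6 spleen libraries. Pglyrp1 had a peak in all 12. Mpo had a peak in 2 CSF1R+ BM libraries. Elane, Prtn3 and Chil3 had none. With GENCODE gene starts, which differ for some of these genes, Ngp, Camp, Ltf and Lcn2 kept the pattern, while Prtn3 gained a spleen peak and Pglyrp1 lost its own. In a window 5 times as wide Elane, Prtn3 and Mmp8 also had a spleen peak. The BM libraries listed 65832 to 76530 peaks and the spleen libraries 43407 to 50392, so that 45.8% to 48.0% and 39.8% to 41.2% of all genes had a peak at their start, and the part of this difference in the pattern was not tested.

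The peaks at the BM-only genes were lower than most. In CSF1R+ BM, fold enrichment over the local background, as the peak caller gave it, was 3.49, 3.13 and 3.28 at Ngp and 4.74, 3.996 and 6.35 in CSF1R- BM. At Camp it was 4.58, 4.95 and 3.82 in CSF1R+ and 7.47, 5.17 and 6.39 in CSF1R-. At Ltf, whose upstream run is printed above, it was 5.45, 7.43 and 3.82 in CSF1R+ and 11.6, 9.86 and 11.4 in CSF1R-. At Lcn2 it was 4.24, 3.83 and 4.30 in CSF1R+ and 9.19, 4.74 and 10.3 in CSF1R-. The median over all genes with a peak at their start was 14.3 to 16.2 in the BM libraries.

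At each of these 4 genes the 3 CSF1R- libraries lay above the 3 CSF1R+ libraries without overlap. Of all genes with a peak in each of the 6 BM libraries, 25.6% had that pattern and 1.09% the reverse, and among the genes with peaks in BM alone 10.5% had it. With 3 libraries against 3 the smallest p an exact two-sided permutation test allows is 0.1, so that test cannot pass 0.05 at a single gene, and no other test was run. At Pglyrp1 enrichment was 10.6, 9.45 and 11.9 in CSF1R+ and 11.2, 12.1 and 12.2 in CSF1R- BM, which overlap, and 18.1 to 23.8 in the spleen. When only peaks with a −log10 q of at least 5 were kept, 0 of the 10 granule genes had the BM pattern. The share over all genes at that cutoff was not computed. When CSF1R+ replicate 1 of BM was left out, Mmp8 joined the other 4.

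**Figure D5:**
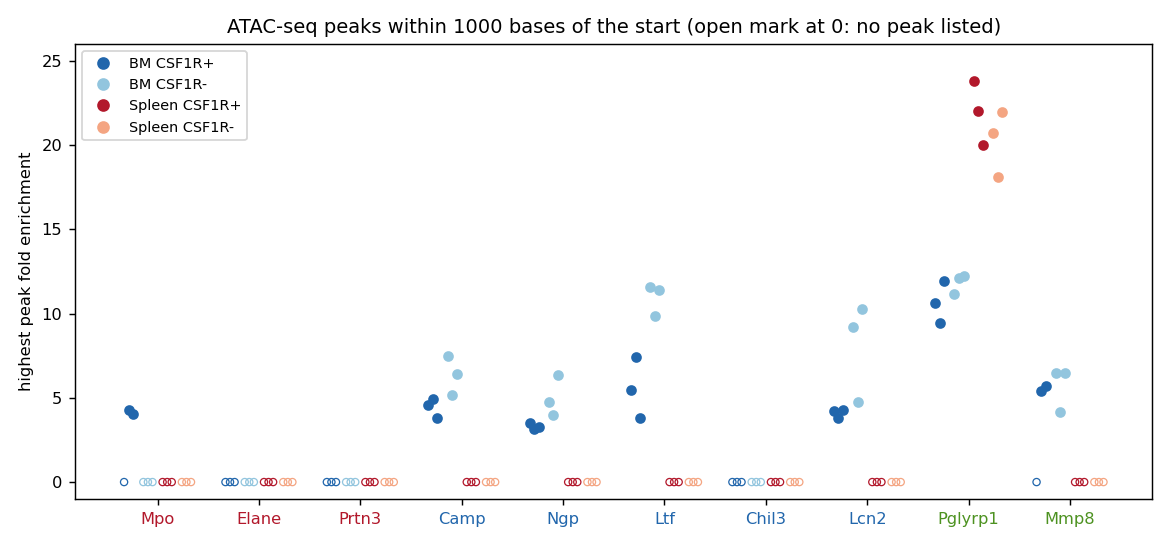
Highest fold enrichment of an ATAC-seq peak within 1000 bases of each gene start, with 1 point per library in CSF1R+ and CSF1R- cells of BM and spleen. Open marks at 0 are libraries with no peak listed. Ngp, Camp, Ltf and Lcn2 have filled points in BM alone, with CSF1R- above CSF1R+, and Pglyrp1 has them in all 12 libraries.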

How the data were processed

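The 8 scRNA-seq libraries were 10x 3′ libraries, processed by the authors with Cell Ranger, STAR and SCTransform in Seurat, and the values they deposited are the natural log of 1 plus the corrected count. Counts were recovered as exp(value) - 1 and rounded, with a largest deviation from a whole number of 5.64e-11 in cultured cells and 0.00196 in tumor cells. Raw depth is unknown, because SCTransform brings totals to one level (median corrected totals of 17420 to 19520 in Mo-MF and 7546 to 8466 in TAM). For the 12 ATAC-seq libraries the authors trimmed reads with cutadapt, aligned them to mm10 with BWA, and called peaks per library with MACS2, and the deposited peak lists give a fold enrichment and −log10 p- and q-values. Those values were used as listed, with a peak assigned to a RefSeq start (GRCm38.p6, 27025 genes) within 1000 bases.

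Means per library were compared with limma 3.58.1 in R 4.3.3 (two-sided, Benjamini-Hochberg over all genes tested), since cells are not replicates and the values are not raw counts. The rest was computed with Python 3.11.15, numpy 2.4.6, scipy 1.17.1 and pandas 2.3.3. The limma scripts were tested on simulated data. All 10 genes are named. From longer lists, exceptions were named after their values were seen, and the genes most alike are the 5 non-members with the highest mean correlation. The genes, lists and tests were chosen with earlier results of these data known. No cells were removed. Alternatives covered the pseudocount, filter, scaling, gate, maturity score, thresholds, peak window and each library left out.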

Additional observations from a re-analysis of the deposited data

Results flagged for a closer look

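Elane, Mpo, Prtn3 and Chil3 moved in opposite directions across the gate in the cultures and in the tumors. In both Mo-MF libraries each was higher in gated cells than outside, by 1.08 counts per cell on average for Elane, 0.513 for Mpo, 2.79 for Prtn3 and 4.47 for Chil3. The replicates differed, with 0.391 and 1.77 for Elane, 0.238 and 0.788 for Mpo and 2.23 and 3.35 for Prtn3, and without the 4 cells per library highest in Elane plus Mpo the mean gated levels fell from 1.096 to 0.154 for Elane, from 0.516 to 0.0213 for Mpo and from 3.22 to 1.12 for Prtn3. In all 4 TAM libraries each was lower in gated cells, with a mean difference of -0.0519 for Elane, -0.0332 for Mpo, -0.315 for Prtn3 and -0.215 for Chil3. The tables were normalised separately and the difference between Mo-MF and TAM was not tested.

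Mpo outside the gate in TAM library 3, at 0.109 counts per cell, lay apart from the other 3 TAM libraries, at 0.00821 to 0.0186. The gap was 0.897 of the range of the 4 libraries, above Dixon's critical value for 4 samples. This was 1 of 28 groups examined, and chance alone picks out about 1 in 20. The richest single cell held 44.3% of the Mpo counts of library 3.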

How the results depend on the processing

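Among the fitted differences of single granule genes, 136 values under the alternatives kept their direction and side of the threshold, though the sizes of low genes moved with the pseudocount, and 2 lost the call, both for Mmp8 outside the gate with 1 Mo-MF library left (-0.35 and -0.37 against -0.36). The number of genes called over all cells was 3413, and 1991 to 5535 when one library was left out, lower without a Mo-MF library and higher without a B-MF library. Outside the gate it was 3081, 1976 to 5416 with one library left out, and 4680 with a mean-variance trend. With the replicate number as a block the counts were 3908 and 3674, but the 2 numbers share only a name (deviations correlated at 0.126 and 0.0843).

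The mean secondary less mean primary position in Mo-MF was 0.0918, and 0.0893 to 0.0944 with one library left out. It was 0.0862 with the gate doubled, 0.144 with cycling genes subtracted from the score, 0.116 with each cell scaled first, and -0.0368 without the 4 cells per library highest in Elane plus Mpo, an alternative chosen after seeing the data whose mean covers Prtn3 alone in replicate 1 and Elane and Prtn3 in replicate 2. The summed level of the 10 genes in gated cells was 225 in Mo-MF, 263 with the gate doubled and 125 with each cell scaled to one total, and 36.1 in TAM, 45.1 with the gate doubled. Outside the gate the sum was 5.76 in Mo-MF and 5.46 in cells under 0.1 of the gate, and 3.54 and 2.03 in TAM.

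The share of gated Mo-MF cells with primary genes was 9.83% and 11.2% at 3 counts, 30.3% and 29.4% at 1, and 2.51% and 3.14% at 10. The percentage of primary-positive cells with secondary genes in Mo-MF was 97.9 at 3 counts, 94.6 at 1 and 100 at 10. In TAM the percentage with secondary genes was 66.0, 80.9 and 41.0, and with both 0.577, 5.40 and 0.124. With −log10 q of at least 5, 0 rather than 4 of the 10 granule genes had the BM-only peak pattern. Causes were not tested beyond what each setting changes. Depth before normalisation limits what a count of 0 shows.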
